A study of Homo sapiens with 18 samples.

Results

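The genes described here are the 4 neuroligins NLGN1, NLGN2, NLGN3 and NLGN4X and the neurexins NRXN2 and NRXN3, 6 of the 20329 genes in the count files. They were chosen by family and by their measured CPM over the 6 genotype groups of the study, so their levels and fold changes are given as a description and carry no test. All 6 were found by their identifiers. Reads that align equally well to NLGN4X and to its near-identical copy on the Y chromosome were not assigned to a gene in these counts, so the values of NLGN4X are of reads that align to it alone.

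Neuroligins are adhesion proteins in the membrane of the receiving neuron, and they bind neurexins in the membrane of the sending neuron across the synaptic cleft. Inside the cell, both families end in a short tail that docks onto scaffold proteins, and the paralogs differ in where they act: NLGN1 is known from excitatory synapses, NLGN2 from inhibitory synapses and NLGN3 from both. NLGN4X is an X-linked member, and mutations in it are known from families with autism. The genes are studied in brain and are not known for a function in a leukemia-derived cell line. The cell line used here, HAP1, is a near-haploid human line.

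RNA was measured in 18 samples, 3 in each of 6 groups. The parental cells, which carry a mutant p53, as do the knockouts made from them, were sequenced as control A and control B. *ΔWAPL* clone 3.3, *ΔSCC4* and *ΔWAPL*/*ΔSCC4* are compared with control A, and *ΔWAPL* clone 1.14 with control B. This allocation matches the order of the samples, but the labels name no control for any knockout. Ratios to a control, and the words set A and set B for knockouts, rest on it. WAPL is the factor that releases cohesin from DNA, and SCC4, whose gene symbol is MAU2, is part of the factor that loads it. CRISPR was used to place a drug resistance cassette into each target gene, for blasticidin in WAPL and for puromycin in SCC4. The double knockout, *ΔWAPL*/*ΔSCC4*, started from *ΔWAPL* cells, by its label those of clone 3.3, which then lost SCC4. The labels number 2 *ΔWAPL* clones and give no clone for *ΔSCC4*, and effects of a gene and of a clone cannot be told apart within one clone. Nothing in the labels says that replicates were separate cultures, so p-values measure only the spread between these samples, which may be technical.

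The total count on genes was between 10007646 and 20711127 per sample. WAPL was measured at 43.7 ± 5.65 CPM (SD, n = 3) in clone 3.3 against 99.2 ± 21.5 in control A, and at 41.3 ± 2.89 in clone 1.14 against 121 ± 14.6 in control B. MAU2 was measured at 0.702 ± 0.243 CPM in *ΔSCC4* and 0.934 ± 0.1 in *ΔWAPL*/*ΔSCC4* against 65.6 ± 6.25 in control A. The targeted genes were thus lower in every group labelled as their knockout (edgeR's quasi-likelihood test, adjusted p between 4.94e-08 and 0.00134 against control). CPM are counts relative to library size, scaled by the TMM method of edgeR. Of 10 neuronal marker genes, 3 or 4 were above 1 CPM in each group, and none of 7 blood cell markers was.

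The genes differ greatly in size. In GRCh37, NLGN4X spans 388.2 kb on the minus strand of the X chromosome (chrX:5758678-6146908), which is longer than 97.3% of annotated genes. NLGN1 spans 898.1 kb on chromosome 3 (chr3:173114074-174012162), and NRXN3 spans 1697.9 kb on chromosome 14 (chr14:78636716-80334634), both on the plus strand and both among the longest human genes. NLGN3 (30.4 kb, chrX:70364671-70395105) and NLGN2 (15 kb, chr17:7308193-7323179), both on the plus strand, are short, and NRXN2 (117.0 kb, chr11:64373646-64490669) lies on the minus strand. NLGN3 and NLGN4X are on the same chromosome but far apart.

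The sequences before 1 transcription start of each of 3 neuroligins are shown, and their content of CG dinucleotides depends on the start chosen. They are the 250 bases before a RefSeq start (taken from GRCh38.p14, each with 1 exact match in GRCh37, whose coordinates are given), 5′ to 3′ on the strand of the gene, with each CG dinucleotide in capitals. NLGN4X is shown because it differs most between the groups, and NLGN1 and NLGN2 because they are the paralogs that these cells express most. The window of NLGN4X, at chrX:6146909-6147158 on the minus strand, is the one before its outermost start.
NLGN4X: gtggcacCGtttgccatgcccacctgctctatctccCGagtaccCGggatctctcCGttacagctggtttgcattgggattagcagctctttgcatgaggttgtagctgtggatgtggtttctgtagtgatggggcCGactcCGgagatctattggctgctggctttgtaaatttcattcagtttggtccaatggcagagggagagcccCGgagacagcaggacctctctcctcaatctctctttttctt
The window of NLGN1 is at chr3:173113492-173113741.
NLGN1: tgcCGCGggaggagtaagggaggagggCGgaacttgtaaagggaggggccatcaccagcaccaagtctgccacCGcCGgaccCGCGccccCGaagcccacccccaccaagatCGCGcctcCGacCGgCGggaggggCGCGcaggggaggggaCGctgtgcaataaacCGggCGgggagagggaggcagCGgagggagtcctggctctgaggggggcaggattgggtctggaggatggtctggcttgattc
The window of NLGN2 is at chr17:7310914-7311163, 2.97 kb inside the annotated gene start.
NLGN2: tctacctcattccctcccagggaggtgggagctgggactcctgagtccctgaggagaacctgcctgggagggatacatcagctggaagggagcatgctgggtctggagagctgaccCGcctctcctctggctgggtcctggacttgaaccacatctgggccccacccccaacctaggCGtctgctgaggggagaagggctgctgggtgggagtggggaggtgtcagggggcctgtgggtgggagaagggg

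The NLGN4X window holds 7 CG dinucleotides at a GC content of 52.4%, the NLGN1 window 19 at 69.2% and the NLGN2 window 2 at 64.8%. Over all 35116 promoter windows of this length, the quartiles are 3, 11 and 23 CG dinucleotides and 46.4%, 58.0% and 68.0% GC. NLGN4X has a second start inside the gene, whose window holds 20 CG dinucleotides at 68.0% GC, near the values of the NLGN1 window. The counts do not tell the starts apart. The TATA box TATAAA (either strand), which occurs in 10.72% of all windows, was found in none of the 9 windows of NLGN1, NLGN2, NLGN3, NLGN4X and NRXN3. The GC box GGGCGG (either strand, 42.64% of all windows) was found in both windows of NLGN1 and in 2 of 3 of NRXN3, and in none of NLGN2, NLGN3 or NLGN4X. A match or its absence describes these letters only. For NRXN2 no window was at hand.

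NLGN4X was nearly silent in control cells and was measured in every knockout. In control A it had 1, 1 and 2 reads, which are 0.0651, 0.0616 and 0.119 CPM. In control B it had 5, 10 and 14 reads, or 0.342, 0.672 and 0.788 CPM. The controls of the second set thus lay above those of the first without overlap, although both are the parental line.

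In *ΔWAPL* clone 3.3 NLGN4X had 80, 57 and 61 reads, or 3.99, 4.03 and 4.05 CPM. In clone 1.14 it was measured at 4.93, 5.16 and 6.03 CPM, from 93, 87 and 100 reads. All 6 *ΔWAPL* samples therefore lay above all 6 controls, and the samples of clone 1.14 lay above those of clone 3.3.

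*ΔSCC4* cells, in which the cohesin loader is affected and not its release factor, held NLGN4X at 5.98, 8.24 and 8.84 CPM, from 92, 81 and 128 reads. *ΔWAPL*/*ΔSCC4* cells held the highest level, at 10.9, 11.6 and 10.3 CPM from 192, 188 and 182 reads. Neither of these groups overlapped with control A, and every double knockout sample lay above every sample of either single knockout.

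The order of the group means was *ΔWAPL*/*ΔSCC4* (10.9 ± 0.63 CPM), *ΔSCC4* (7.69 ± 1.51), clone 1.14 (5.37 ± 0.582), clone 3.3 (4.02 ± 0.0342), control B (0.601 ± 0.231) and control A (0.082 ± 0.0322), each with its SD over 3 samples. *ΔSCC4* and clone 1.14 are the only neighbours in this order whose samples overlapped. The highest mean was 133 times the lowest.

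**Figure D1:**
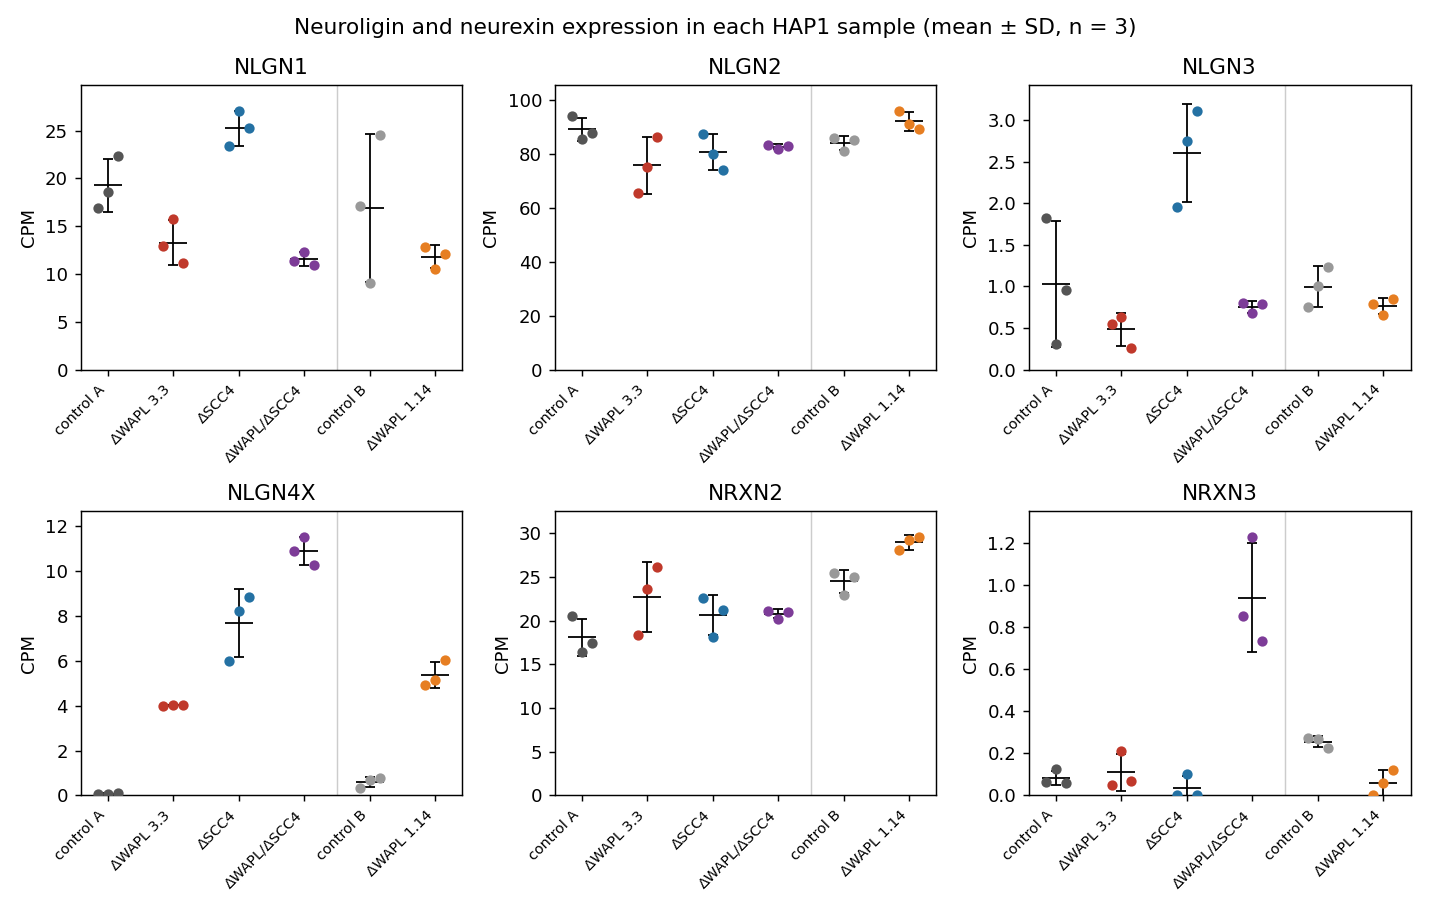
CPM of the 6 genes in each of the 18 HAP1 samples (linear axes from 0, one panel per gene), with the mean and SD of the 3 samples of a group; the grey line separates the set with control A from the set with control B. NLGN4X is near 0 in both controls and between 3.99 and 11.6 CPM in all knockout samples, NRXN3 is above 0.7 CPM in *ΔWAPL*/*ΔSCC4* alone, and NLGN2 stays between 65.6 and 96.0 CPM.

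Because control A holds only 4 reads of NLGN4X in all, the ratios against it are imprecise. The ratio of pooled reads per effective library size was 48.6 in clone 3.3 (exact 95% interval 18.69 to 180.1, which covers counting error only). It was 91.72 in *ΔSCC4* (35.45 to 338.8) and 131.8 in *ΔWAPL*/*ΔSCC4* (51.21 to 485.6). These 3 share the control samples, and their intervals overlap one another.

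In set B, where the control holds 29 reads, the ratio of clone 1.14 to control B was 8.73 (5.945 to 13.28). The smaller ratio goes with a higher control and not with a lower knockout level, since clone 1.14 was above clone 3.3 in CPM. Control B against control A gave 7.416 (2.604 to 29.03). The most precise ratio was that of *ΔWAPL*/*ΔSCC4* to clone 3.3, the *ΔWAPL* clone that it is labelled with, at 2.713 (2.303 to 3.206).

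On the log2 scale, the fitted fold change of NLGN4X was 5.46 ± 0.356 (SE) in clone 3.3, 3.11 ± 0.228 in clone 1.14, 6.38 ± 0.357 in *ΔSCC4* and 6.92 ± 0.265 in *ΔWAPL*/*ΔSCC4* against their controls. *ΔWAPL*/*ΔSCC4* against clone 3.3 gave 1.44 ± 0.146. The gene did not pass the low-count filter between the controls, and it passed in the knockout comparisons through the knockout samples. The fold change in clone 3.3 exceeded that in clone 1.14 by 2.36 ± 0.515.

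NLGN1, the neuroligin of excitatory synapses, was expressed at a medium level and was distributed otherwise. It was measured at 16.9, 18.6 and 22.3 CPM in control A and at 23.3, 27.1 and 25.3 in *ΔSCC4*. Clone 3.3 held 12.9, 15.8 and 11.2 CPM, and *ΔWAPL*/*ΔSCC4* 11.4, 12.3 and 11. Against control A, *ΔSCC4* thus lay above and the other knockouts below, without overlap.

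The log2 fold change of NLGN1 against control A was 0.37 ± 0.153 (SE) in *ΔSCC4*, -0.55 ± 0.173 in clone 3.3 and -0.74 ± 0.142 in *ΔWAPL*/*ΔSCC4*. In set B the controls spread from 9.07 to 24.5 CPM and enclosed the samples of clone 1.14 (12.9, 10.6 and 12.1), with a log2 fold change of -0.52 ± 0.311. The highest group mean of NLGN1 was 2.18 times the lowest. *ΔSCC4* and *ΔWAPL*/*ΔSCC4*, the groups with the highest NLGN4X, were the highest and the lowest for NLGN1.

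NLGN2, the neuroligin of inhibitory synapses, varied least of the 6 genes. Its group means lay between 75.7 ± 10.4 CPM in clone 3.3 and 92.1 ± 3.49 in clone 1.14, a ratio of 1.22. Each group overlapped with its neighbours in the order of the means. The samples of clone 1.14 (96.0, 90.9 and 89.3 CPM) lay above those of control B (85.7, 81.3 and 85.3), by 0.13 ± 0.055 on the log2 scale, while clone 3.3 was at -0.25 ± 0.153 against control A, with overlap.

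NLGN3, which is known from both kinds of synapse, had its highest level in *ΔSCC4*. It was measured at 1.95, 2.75 and 3.11 CPM there, from 30, 27 and 45 reads. Control A held 1.82, 0.308 and 0.953 CPM, a within-group spread of 73.9% of the mean. The *ΔSCC4* samples were above all control A samples, with a log2 fold change of 1.33 ± 0.44, but the lowest of them was close to the highest control. The means of the other 4 groups lay between 0.483 ± 0.194 CPM in clone 3.3 and 0.999 ± 0.243 in control B.

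**Figure D2:**
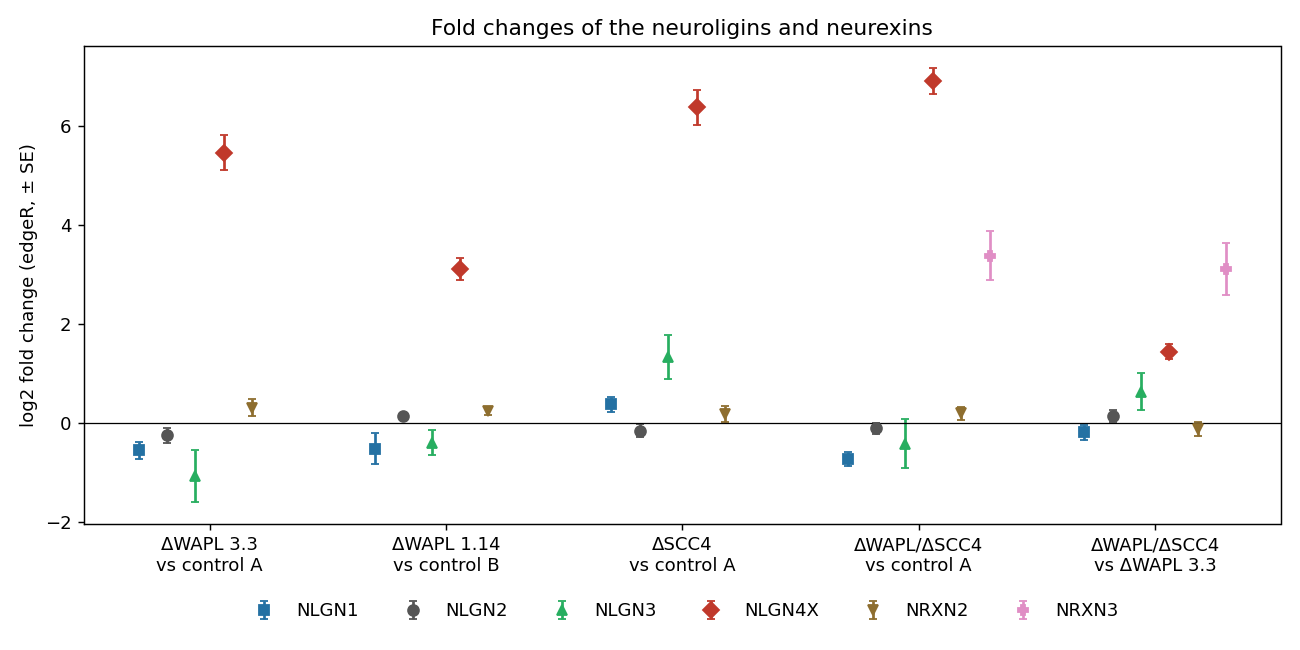
Log2 fold change with its SE of the 6 genes in 5 comparisons (edgeR); NRXN3 is drawn only where it passed the low-count filter. NLGN4X lies at 3.11 or above in the 4 comparisons with a control, while NLGN1, NLGN2, NLGN3 and NRXN2 lie between -1.08 and 1.33 in all 5.

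The neurexins were distributed differently from one another. NRXN2 was measured between 16.5 and 29.6 CPM in all samples, with group means from 18.1 ± 2.12 in control A to 29 ± 0.821 in clone 1.14. The samples of clone 1.14 (28.0, 29.2 and 29.6 CPM) lay above those of control B (25.5, 23 and 25), with a log2 fold change of 0.24 ± 0.069. Control B in turn lay above control A, by 0.42 ± 0.137 on the log2 scale. This estimate is larger than that of any knockout against its control, which lay between 0.18 and 0.31.

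NRXN3 had few reads, and most of them in *ΔWAPL*/*ΔSCC4*. It had 15, 20 and 13 reads there, or 0.853, 1.23 and 0.735 CPM. Control A had 1, 2 and 1 reads, clone 3.3 had 1, 3 and 1, *ΔSCC4* had 0, 1 and 0, clone 1.14 had 0, 1 and 2, and control B had 4 in each sample. The double knockout samples were above all 15 others.

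The ratio of NRXN3 in *ΔWAPL*/*ΔSCC4* was 11.26 against control A (exact 95% interval 4.123 to 43) and 9.175 against clone 3.3 (3.671 to 29.53). Both fits tested the gene only through the double knockout samples. In clone 1.14, 3 reads stood against 12 in control B, without overlap, a ratio of 0.226 (0.04093 to 0.8376). In *ΔSCC4*, a single read stood against 4 in control A, and a difference was not detectable at this depth. The pattern differs from that of NLGN4X, which was above control in each single knockout too.

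The background against which calls of these genes stand differs between comparisons. At an adjusted p under 0.05, 8.07% of the genes tested passed in clone 3.3, 20.1% in clone 1.14, 9.49% in *ΔSCC4*, 7.95% in *ΔWAPL*/*ΔSCC4* against control A and 10.6% in *ΔWAPL*/*ΔSCC4* against clone 3.3. Between the controls it was 0.64%, and for the difference between the clones 2.65%. Of the neuroligins and neurexins tested, 1 of 5 passed in clone 3.3, in clone 1.14, in *ΔSCC4* and for the difference between the clones (each time NLGN4X). In *ΔWAPL*/*ΔSCC4* 3 of 6 passed against control A (NLGN4X and NRXN3 up, NLGN1 down) and 2 of 6 against clone 3.3 (NLGN4X and NRXN3 up). None of 4 passed between the controls (1 at an unadjusted p under 0.05, 0 with DESeq2). These values chose the genes and nothing is read from the counts. A replicate block gave 4 of 5 in *ΔSCC4*, where 46% of all genes then passed.

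Per kb of exon, the neuroligins can be compared with each other, but their order depends on the length used. The merged exons of all annotated transcripts were used, 17.911 kb for NLGN1 and 7.439 kb for NLGN4X. Reads that NLGN4X shares with its Y copy were not counted, but its full exon length was used. Its level per kb, its rank and its share may therefore be too low. In control A the level was 15.6 ± 0.754 CPM per kb for NLGN2, 1.08 ± 0.155 for NLGN1, 0.0715 ± 0.0529 for NLGN3 and 0.011 ± 0.00434 for NLGN4X. NLGN4X was therefore the lowest of the 4 there, and NLGN2 the highest by far. In *ΔWAPL*/*ΔSCC4* NLGN4X reached 1.47 ± 0.0847 CPM per kb, above NLGN1 at 0.646 ± 0.0396 and second to NLGN2 at 14.5 ± 0.142. In CPM, without division by length, NLGN1 had the higher mean there (11.6 ± 0.709 against 10.9 ± 0.63). The same held in clone 1.14 (11.8 ± 1.17 against 5.37 ± 0.582).

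In clone 1.14 NLGN4X (0.723 ± 0.0782 CPM per kb) was also second by its mean, with samples that overlapped those of NLGN1 (0.661 ± 0.0656). In clone 3.3 (0.541 ± 0.0046) and *ΔSCC4* (1.03 ± 0.203) it lay below NLGN1 (0.742 ± 0.13 and 1.41 ± 0.104). In control B it was at 0.0807 ± 0.0311 CPM per kb, beside NLGN3 at 0.0695 ± 0.0169. As a share of the summed neuroligin level, NLGN4X went from 0.0659% in control A and 0.512% in control B to 3.75% in clone 3.3, 4.13% in clone 1.14, 6.23% in *ΔSCC4* and 8.82% in *ΔWAPL*/*ΔSCC4*. NLGN2 made up between 84.2% and 93.2% of the sum in each group, so most neuroligin RNA remained NLGN2.

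**Figure D3:**
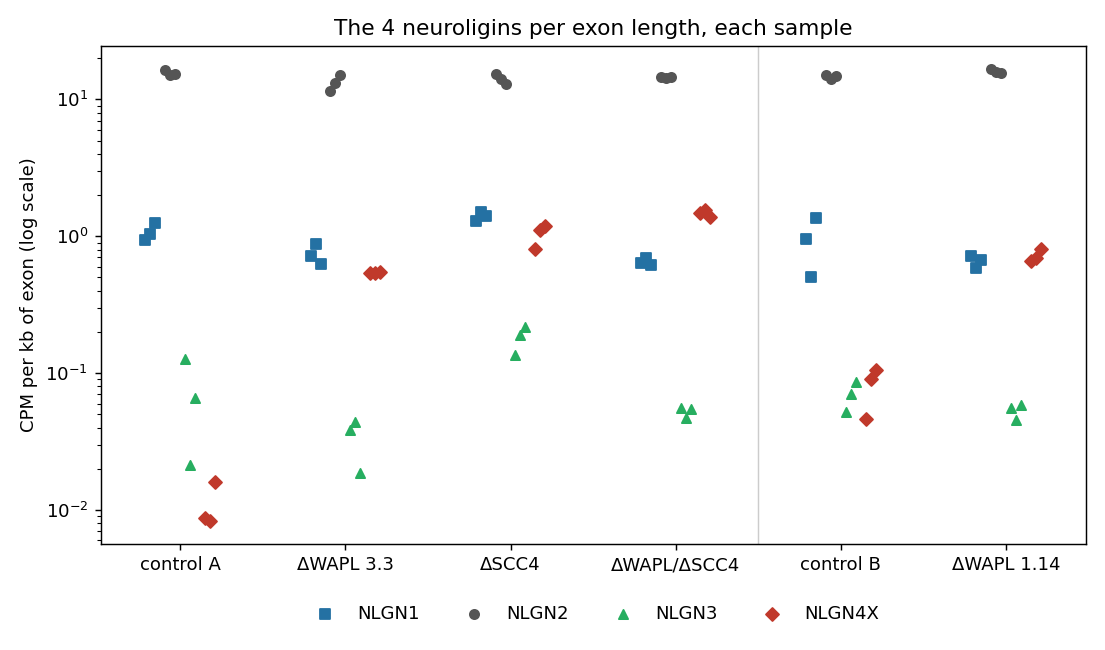
CPM per kb of merged exon length (log axis) of the 4 neuroligins in each sample, by group. NLGN2 lies above 10 in all samples, and NLGN4X moves from the lowest place in control A (mean 0.011) to the second in *ΔWAPL*/*ΔSCC4* (mean 1.47), while NLGN1 stays between 0.507 and 1.51.

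The genes to which these proteins bind were measured for comparison, as a list of 57 partners. This list was chosen with earlier results of these data known. Its shares and p-values therefore describe these samples and are no independent test. The counts include calls of SHANK2 and NXPH1 in comparisons where they passed the low-count filter through 1 group alone. In bulk RNA, fewer cells that express a gene and less RNA per cell cannot be told apart. Of the 57 genes, 46 passed the low-count filter in at least 1 of the 5 comparisons with a knockout, and 19 of them passed the test in at least 1 (41.3%, against 29.7% of all genes). In clone 3.3, 3 rose and 3 fell of 44 tested (13.6%, against 8.07% of all genes), and in clone 1.14, 9 rose and 6 fell of 44 (34.1%, against 20.1%). In *ΔSCC4*, 3 rose and 2 fell of 44 (11.4%, against 9.49%). In *ΔWAPL*/*ΔSCC4*, 2 rose and 4 fell of 45 against control A (13.3%, against 7.95%), and 2 rose and 3 fell of 45 against clone 3.3 (11.1%, against 10.6%). The shares in *ΔSCC4* and against clone 3.3 are thus near those of all genes. Between the controls, 0 of 44 passed with edgeR (1 at an unadjusted p under 0.05, 0 with DESeq2).

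The median log2 fold change of the partners was -0.01 in clone 3.3, 0.11 in clone 1.14, 0.02 in *ΔSCC4*, 0.06 in *ΔWAPL*/*ΔSCC4* against control A and 0.07 against clone 3.3. Over all genes tested the medians lay between -0.0111 and 0.0015 in these comparisons. Partners rose and fell in each of these comparisons. Under a replicate block, 18 partners passed in *ΔSCC4* in place of 5, where the share of all genes went from 9.49% to 46%.

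Among the neurexin ligands, LRRTM3, CLSTN2 and CBLN1 each passed in 3 comparisons. LRRTM3, a postsynaptic adhesion protein that binds neurexins, was measured at 20.2, 21.8 and 25.7 CPM in control A and at 7.03, 7.57 and 5.38 in clone 3.3. *ΔWAPL*/*ΔSCC4* held 6.49, 6.94 and 6.22, and *ΔSCC4* 20.9, 23.7 and 24.5. It was thus low in the groups with the *ΔWAPL* genotype, while *ΔSCC4* overlapped with control A.

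The log2 fold change of LRRTM3 was -1.78 ± 0.176 (SE) in clone 3.3 (edgeR, adjusted p = 6.73e-06), -1.49 ± 0.133 in clone 1.14 (adjusted p = 0.000339) and -1.79 ± 0.142 in *ΔWAPL*/*ΔSCC4* (adjusted p = 2e-05). CLSTN2, a calsyntenin, rose in both *ΔWAPL* clones, by 2.28 ± 0.203 (adjusted p = 2.53e-06) and 2.97 ± 0.133 (adjusted p = 1.71e-05) on the log2 scale. It fell in *ΔWAPL*/*ΔSCC4* against clone 3.3, with a log2 fold change of -1.9 ± 0.165 (adjusted p = 6.93e-07). Its levels were 8.12, 8.13 and 8.5 CPM in clone 3.3 and 2.5, 2.15 and 1.98 in the double knockout. NLGN4X was higher in the double knockout than in clone 3.3, while both genes were higher in each *ΔWAPL* clone than in its control.

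CBLN1, a secreted bridge between neurexins and glutamate delta receptors, rose in clone 3.3 (2.07 ± 0.188 to 4.57 ± 0.657 CPM, edgeR adjusted p = 0.00265) and in *ΔWAPL*/*ΔSCC4* (to 4.04 ± 0.173, adjusted p = 0.00485). In clone 1.14 it rose from 2.29 ± 0.356 to 3.55 ± 0.312 CPM (adjusted p = 0.0279), a call that was lost without the first replicate of control B or without the first or the third of clone 1.14 (adjusted p up to 0.107). NXPH1, a secreted neurexin ligand, fell in *ΔWAPL*/*ΔSCC4* from 10, 10 and 13 reads to 2, 2 and 0 (log2 fold change -3.02 ± 0.58, adjusted p = 0.00839), where it passed the low-count filter only through control A. *ΔSCC4* was similarly low, with 2 reads in each sample (0.157 ± 0.0403 CPM against 0.681 ± 0.0831 in control A), but NXPH1 did not pass the filter there. Clone 3.3 held 1.09 ± 0.484 CPM, and clone 1.14 held 0.986 ± 0.28 against 0.766 ± 0.276 in control B. CLSTN3 and NXPH4 rose in clone 1.14, with log2 fold changes of 0.31 ± 0.064 (adjusted p = 0.0141) and 0.31 ± 0.073 (adjusted p = 0.0248). The first was lost without the first replicate of clone 1.14 (adjusted p = 0.0701) and the second in 4 of 6 fits without a replicate (without the first of control B or any of clone 1.14, adjusted p up to 0.104).

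Of the genes that bind or cleave neuroligins, MDGA1, which blocks neuroligins from binding neurexins, rose in *ΔSCC4*. It was measured at 16.9, 13.7 and 11.4 CPM there and at 7.75, 5.92 and 6.55 in control A, without overlap (log2 fold change 1.05 ± 0.192, edgeR adjusted p = 0.00587). No other of the 3 genes tested in this class passed in any comparison with a knockout.

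Of the scaffolds of the sending side, PPFIA2, a liprin, fell in clone 3.3, *ΔSCC4* and *ΔWAPL*/*ΔSCC4*. Its levels were 56.6, 73.5 and 101.0 CPM in control A, a wide range, against 28.4 to 44.7 in the 9 knockout samples of set A. The log2 fold changes were -1.14 ± 0.187 (edgeR adjusted p = 0.000814), -1.06 ± 0.225 (adjusted p = 0.0132) and -0.96 ± 0.194 (adjusted p = 0.0111), and these comparisons share control A. The last was lost without the first replicate of *ΔWAPL*/*ΔSCC4* (adjusted p = 0.081). In control B the samples held 54.0, 38.2 and 78.2 CPM, and clone 1.14 (42, 36.2 and 39.5) overlapped with them (adjusted p = 0.142).

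LIN7A, which docks CASK to other proteins, rose in clone 3.3 (log2 fold change 0.53 ± 0.141, edgeR adjusted p = 0.028) and clone 1.14 (0.96 ± 0.249, adjusted p = 0.0344). Each call was lost in 4 of 6 fits without a replicate (clone 3.3: without the second of control A or any of clone 3.3, adjusted p up to 0.192; clone 1.14: without the first of control B or any of clone 1.14, up to 0.121). CASK, which binds the tail of neurexins, and PPFIA4, a liprin, rose in clone 1.14 by 0.27 ± 0.065 (adjusted p = 0.0263) and 0.45 ± 0.125 (adjusted p = 0.0451) on the log2 scale. CASK was lost without the first replicate of control B or any of clone 1.14 (adjusted p up to 0.116), and PPFIA4 also without the second of control B (up to 0.161).

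Among the scaffolds of the receiving side, DLG2 and SHANK2 moved most. DLG2, also called PSD-93, was measured at 8.46, 9.62 and 14.1 CPM in control A, at 4.73, 4.38 and 3.59 in clone 3.3 and at 1.76, 2.09 and 2.32 in *ΔWAPL*/*ΔSCC4*. It fell in all 5 comparisons with a knockout. The group with the highest NLGN4X thus had the lowest DLG2, but the other knockouts did not follow that order. *ΔSCC4*, second for NLGN4X, had a higher DLG2 mean (5.47 ± 1.88 CPM) than clone 3.3 (4.24 ± 0.587) and clone 1.14 (3.87 ± 0.679).

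The log2 fold changes of DLG2 were -1.35 ± 0.209 in clone 3.3 (edgeR adjusted p = 0.000459), -1.17 ± 0.149 in clone 1.14 (adjusted p = 0.00179), -2.38 ± 0.226 in *ΔWAPL*/*ΔSCC4* (adjusted p = 7.18e-05) and -1.05 ± 0.194 in *ΔWAPL*/*ΔSCC4* against clone 3.3 (adjusted p = 0.00166). In *ΔSCC4* it was -0.98 ± 0.269 (adjusted p = 0.0456). That call was lost without the second or the third replicate of control A or the first or second of *ΔSCC4* (adjusted p up to 0.153). A replicate block gave 7.51e-05.

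SHANK2, a master scaffold that lies deeper in the postsynaptic density, had few reads. It had 1, 2 and 4 reads in control A, 4, 2 and 2 in clone 3.3, 16, 9 and 29 in *ΔSCC4* and 23, 28 and 16 in *ΔWAPL*/*ΔSCC4*. It rose where SCC4 was deleted, by 3.14 ± 0.528 in *ΔSCC4* (edgeR adjusted p = 0.00335), 3.1 ± 0.471 in *ΔWAPL*/*ΔSCC4* (adjusted p = 0.00184) and 2.95 ± 0.433 against clone 3.3 (adjusted p = 0.000194) on the log2 scale. Control B held 0.478, 0.538 and 0.338 CPM and clone 1.14 0.318, 0.119 and 0.362, and the gene had too few reads to be tested in either *ΔWAPL* clone against its control. It passed the low-count filter only through the samples without SCC4, so it had to differ where it was tested.

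MAGI2, a scaffold known to bind the tail of neuroligins, rose in *ΔSCC4* (log2 fold change 0.99 ± 0.218, edgeR adjusted p = 0.0163) and clone 1.14 (0.69 ± 0.109, adjusted p = 0.00462) and fell in *ΔWAPL*/*ΔSCC4* against clone 3.3 (-0.64 ± 0.152, adjusted p = 0.0118). The first was lost without the second replicate of control A (adjusted p = 0.0639), and the last without the second of clone 3.3 or the third of *ΔWAPL*/*ΔSCC4* (adjusted p up to 0.0886). SHANK3 rose in *ΔWAPL*/*ΔSCC4* against clone 3.3 (0.9 ± 0.167, adjusted p = 0.00166) and fell in clone 1.14 (-0.28 ± 0.08, adjusted p = 0.0484). The fall was lost in 5 of 6 fits without a replicate, all but the one without the second of control B (adjusted p up to 0.167).

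In clone 1.14, 4 more scaffolds of the receiving side passed. HOMER2 fell from 99.6 ± 7.79 to 72.3 ± 1.01 CPM (edgeR adjusted p = 0.00411), and DLG4, known as PSD-95 and as a binder of NLGN1, fell from 6.16 ± 0.374 to 4.31 ± 0.708 (adjusted p = 0.0406). DLGAP3 fell from 7.73 ± 0.309 to 5.85 ± 0.501 CPM (adjusted p = 0.026), and MAGI1 rose from 31.3 ± 2.09 to 39.9 ± 0.611 (adjusted p = 0.0109). With DESeq2, 6 of the 15 partner calls in clone 1.14 were lost, those of CBLN1 (adjusted p = 0.116), NXPH4 (0.0735), PPFIA4 (0.0982), DLG4 (0.113), DLGAP3 (0.145) and SHANK3 (0.222). Of the 4 scaffolds, all but HOMER2 were lost without single replicates. For DLG4 these were the first or second of control B or the second or the third of clone 1.14 (adjusted p up to 0.124), for DLGAP3 the first of control B or the first or second of clone 1.14 (up to 0.102), and for MAGI1 the first of control B or the first or the third of clone 1.14 (up to 0.0564).

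**Figure D4:**
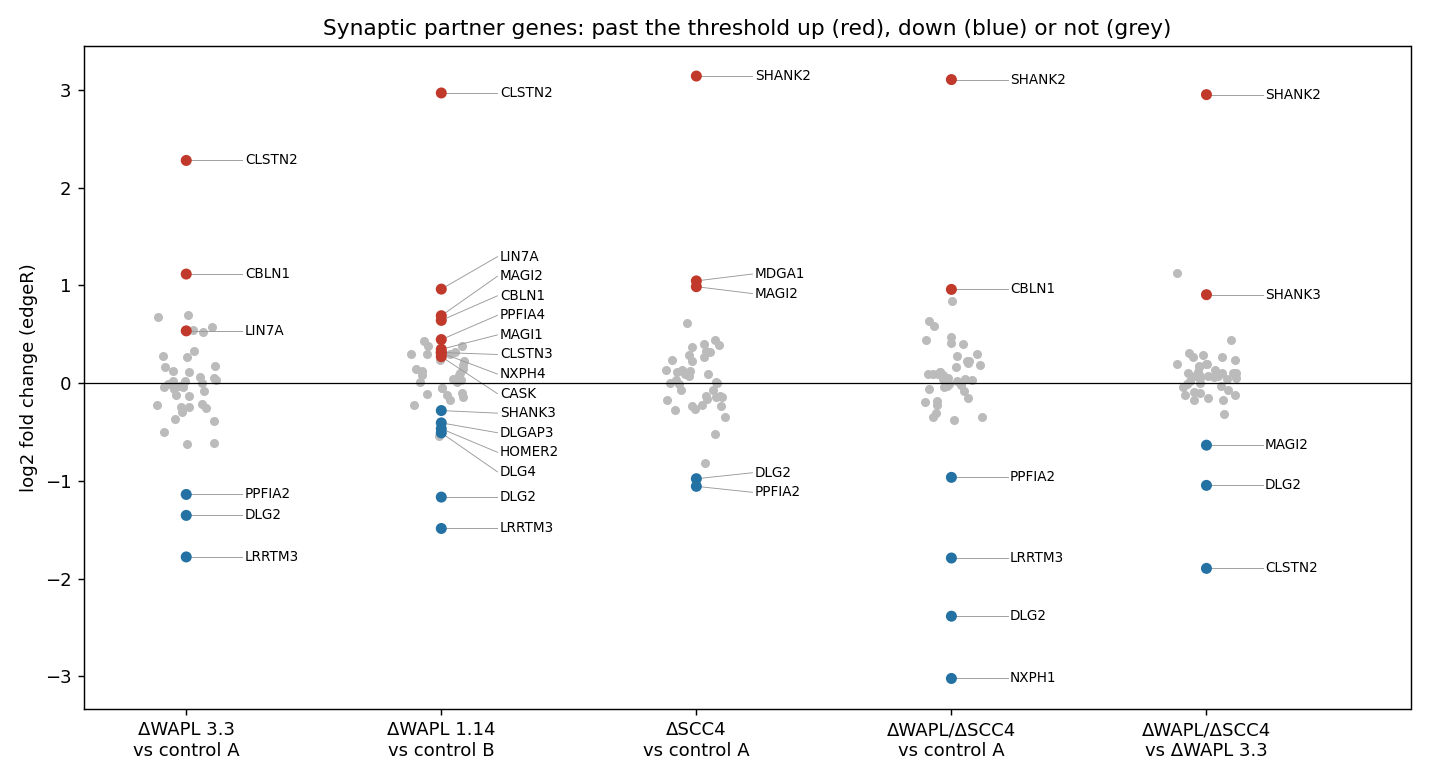
Log2 fold change (edgeR) of the partner genes tested in 5 comparisons, one point per gene; red and blue points rose or fell at an adjusted p under 0.05 and are named, grey points did not pass and are spread sideways for legibility. NXPH1 and DLG2 in *ΔWAPL*/*ΔSCC4* against control A are the lowest points, SHANK2 is the highest in the 3 comparisons of cells without SCC4, and CLSTN2 is the highest in both *ΔWAPL* clones and the lowest in *ΔWAPL*/*ΔSCC4* against clone 3.3.

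For comparison, the genes beside NLGN4X were also measured. Within 1 Mb of its gene body lie 3 genes, of which 2 could be tested. PUDP, a phosphatase, was measured at 48.8 to 52.6 CPM in all groups and passed in no comparison (log2 fold change between -0.099 and 0.002). STS, the steroid sulfatase, rose in clone 1.14 from 10.9 ± 0.218 to 18.5 ± 1.61 CPM (edgeR adjusted p = 0.00108) and in *ΔSCC4* from 12.6 ± 3.61 to 22.7 ± 4.42 (adjusted p = 0.0389). In clone 3.3 and *ΔWAPL*/*ΔSCC4* its means were 15.8 ± 2.34 and 14.8 ± 2.32 CPM (adjusted p = 0.483 and 0.674). The mean of STS was thus above that of its control in every knockout, but STS did not pass in clone 3.3 or in the group with the highest NLGN4X. VCX3A had at most 1 read in any sample.

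Near the other genes, calls were most frequent in clone 1.14, where 20.1% of all genes passed. There, 2 of 4 genes near NLGN1, 11 of 65 near NLGN2, 4 of 16 near NLGN3, 16 of 63 near NRXN2 and 4 of 14 near NRXN3 did. Within 1 Mb of NLGN1, 3 to 4 genes could be tested, and the largest change was that of TNFSF10 in clone 1.14 (1.41 ± 0.233 on the log2 scale, edgeR adjusted p = 0.00571). Near NLGN3 it was SLC7A3, which fell in clone 1.14 from 99.2 ± 8.14 to 42.2 ± 1.59 CPM (adjusted p = 6.3e-05). Near NRXN2 it was CCDC88B in *ΔSCC4* (1.5 ± 0.341, adjusted p = 0.0184), among 62 to 63 genes tested.

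Near NLGN2, in a dense region with 62 to 65 genes tested, it was ARHGEF15, which had 65 reads in control B and none in clone 1.14 and was thus at least 24-fold lower against a floor of 3 counts over the group (edgeR adjusted p = 0.00147). Near NRXN3 the largest change was in the group in which NRXN3 was highest. DIO2, which codes for a deiodinase that activates thyroid hormone, was measured at 0.956 ± 0.191 CPM in *ΔWAPL*/*ΔSCC4* and 0.0568 ± 0.0513 in clone 3.3 (log2 fold change 3.81 ± 0.564), and it passed the low-count filter there only through the double knockout. CCDC88B in *ΔSCC4* and ARHGEF15 in control B likewise passed the filter through 1 group alone. Of 15 genes tested near NRXN3, 2 rose in *ΔWAPL*/*ΔSCC4* against clone 3.3, where 10.6% of all genes passed. Against control A 1 rose, where 7.95% of all genes passed. Nothing is read from counts this small.

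Neither the paralogs of NLGN4X nor the neurexins followed it across the samples. Over the 18 samples, Pearson's correlation with NLGN4X of the log2 CPM (prior count 2) was -0.29 for NLGN2, -0.24 for NLGN1, 0.12 for NLGN3, 0.20 for NRXN3 and 0.28 for NRXN2. The points share the control and knockout groups and are not independent, so these are descriptions. Among 11559 genes whose log2 CPM averaged 1 or more, the 8 most alike by this measure were PCDHB5 (0.966), FRMD4A (0.961), JAKMIP3 (0.958), OLFM1 (0.955), MPDZ (0.95), S100A11 (0.945), KLHL29 (0.942) and SAMD12 (0.936). Over the 6 group means the values were 0.983, 0.975, 0.963, 0.961, 0.967, 0.99, 0.954 and 0.976 in the same order.

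These 8 genes were picked for their likeness to NLGN4X in these samples, so a shared pattern comes with the choice. All 8 had lower means in both controls than in every knockout, but the ratio of their highest to their lowest mean was smaller than that of NLGN4X. JAKMIP3 had means of 0.184 ± 0.0989 CPM in control A, 0.266 ± 0.129 in control B, 2.55 ± 0.41 in clone 3.3, 6.66 ± 0.785 in clone 1.14, 7.6 ± 1.47 in *ΔSCC4* and 6.28 ± 0.394 in *ΔWAPL*/*ΔSCC4*. PCDHB5, a protocadherin, had 7.65 ± 0.589 CPM in control A and 25 ± 2.36 in *ΔWAPL*/*ΔSCC4*. SAMD12 went from 1.15 ± 0.196 CPM in control A to 6.71 ± 1.98 in *ΔWAPL*/*ΔSCC4*, its highest mean. With Spearman's correlation in place of Pearson's, only 1 of these 8 genes was among the 8 most alike.

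**Figure D5:**
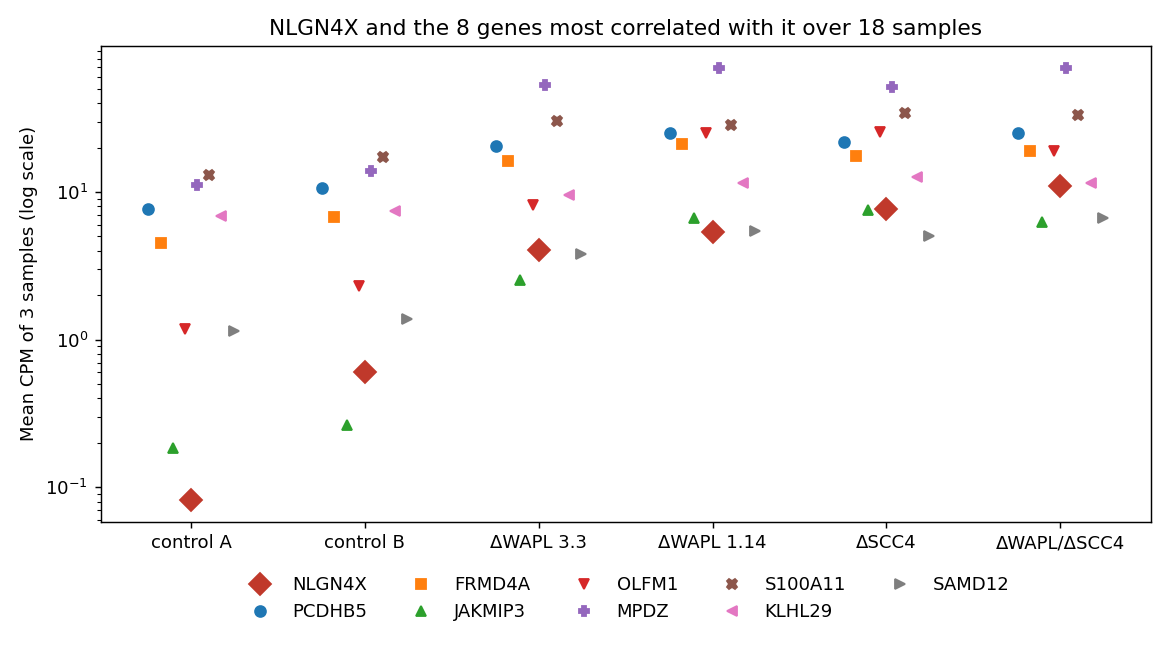
Mean CPM (log axis) of NLGN4X (red diamonds) and of the 8 genes with the highest Pearson correlation with it over 18 samples, in the 6 groups. All 9 are lowest in control A and higher in every knockout than in both controls, a likeness for which the 8 were picked. NLGN4X spans the largest ratio of these, from 0.082 to 10.9 CPM.

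The summed markers of other cell types stood apart in *ΔWAPL*/*ΔSCC4*, while single markers differed in other groups too. The summed level of the 10 neuronal markers was 11.8 to 12.8 CPM in the *ΔWAPL*/*ΔSCC4* samples and 31.8 to 50.8 in all others. ELAVL4 was at 0 in every group, and STMN2 in *ΔWAPL*/*ΔSCC4* and *ΔSCC4*. The lower sum lay mostly in MAP2 (2.78 ± 0.788 CPM against 18.3 ± 4.49 in control A) and SYT1 (0.778 ± 0.0921 against 15.5 ± 3.01), while TUBB3 was at 1.72 ± 0.216 against 1.85 ± 0.494. SYT1 was also below control A in clone 3.3 (2.3 ± 0.312 CPM) and *ΔSCC4* (4.58 ± 0.25). MAP2 was higher in clone 1.14 (31.9 ± 0.602 CPM) than in control B (16.2 ± 2.51). The 4 epithelial markers summed to 107 to 130 CPM in the double knockout and to 41.6 to 81.9 elsewhere, with CDH1 at 0 in the double knockout, *ΔSCC4* and clone 3.3. The higher sum lay mostly in KRT8 (48.5 ± 3.42 CPM against 8.14 ± 1.32 in control A), while EPCAM was at 0.657 ± 0.273 against 1.17 ± 0.509. EPCAM was lowest in clone 1.14 (0.095 ± 0.031 CPM, against 1.51 ± 0.259 in control B). Blood cell markers summed to at most 0.691 CPM in every sample, with CD3E at 0 throughout. The highest NLGN4X and NRXN3 and the lowest DLG2 thus stood in the group with the lowest neuronal and the highest epithelial sum, and the part of these markers in the results was not tested.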

How the data were processed

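Polyadenylated RNA of HAP1 cells was sequenced from strand-specific libraries in 18 samples. The authors aligned the reads with TopHat and deposited raw HTSeq counts per gene, without normalization. The submitters' processing notes name TopHat2 2.0.9, hg19 and DESeq2 1.10.1; the annotation is not given in the sources used here. Of the gene identifiers, 96.6% had a symbol. Entries that name no gene were left out of library sizes (reads aligned to several places 14.3 to 16.1% of all, without a feature 4.04 to 5.22%, ambiguous 1.47 to 1.73%). Total counts ranged from 10007646 to 20711127, and no replicates were identical.

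Each comparison was fitted with the quasi-likelihood test of edgeR (version 4.0.16, in R 4.3.3), run on deposited counts of only the groups compared, with TMM, filterByExpr defaults and Benjamini-Hochberg adjustment over all genes tested, at a threshold of 0.05. Standard errors were obtained by dividing the size of each log2 fold change by the root of its F statistic, and low counts may make them too small. The fits were tested on simulated data with changes planted only in genes of higher counts, so that check does not cover genes with few reads, such as NRXN3, SHANK2 and NXPH1. CPM used TMM over all samples, and log2 CPM a prior count of 2. Exon lengths and positions came from GENCODE on GRCh37, and promoter windows from RefSeq (GRCh38.p14). The neuroligins, neurexins and gene lists were chosen with earlier results of these data known. Named were the 6 genes, the partner genes past the threshold (at most 25), the 8 genes most correlated with NLGN4X, the genes within 1 Mb of NLGN4X, the largest change within 1 Mb of each other gene, and WAPL and MAU2. Values of some partner genes are not reported here, but the counts over the list include them.

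Replicate numbers were checked for pairing by the correlation of deviations from group means. Between *ΔSCC4* and control A the correlation of samples with the same number was 0.115 to 0.675, so the block is given there; nothing in the labels says what a number marks. Alternatives were a replicate block, the omission of each replicate, DESeq2 1.42.0 or only its size factors, a joint fit of all 18 samples, and 2 other filters (none, or a minimum of 10 counts per sample).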

Additional observations from a re-analysis of the deposited data

Results flagged for a closer look

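NLGN2 was noted because all 3 samples of clone 3.3 lay below the mean of control A and all 3 of clone 1.14 above that of control B, with a log2 CPM difference between the clones' effects of -0.37. In the fit of this difference it did not pass (edgeR, -0.36 ± 0.147 (SE), adjusted p = 0.336).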

How the results depend on the processing

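The call of NLGN4X for the difference between the clones held under 8 of 17 alternatives only. The number of partner genes past the threshold depended on the processing. In clone 3.3 it was 6, and 12 with one fit over all samples. In clone 1.14 it was 15, and 7 to 20 without single replicates. In *ΔSCC4* it was 5, and 3 with at least 10 counts in every sample, 13 with one fit over all samples, 18 with the replicate block, and 3 to 9 without single replicates. In *ΔWAPL*/*ΔSCC4* against control A it was 6, and 5 to 11 without single replicates. Against clone 3.3 it was 5, and 8 with DESeq2, 9 without a filter, and 5 to 8 without single replicates. For the difference between the clones it was 1, and 0 without a filter, with at least 10 counts or with the replicate block, and 0 to 1 without single replicates. The cause was not tested.

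Over all genes, one fit over all samples gave 1753 in place of 1008 in clone 3.3, 2556 in place of 1186 in *ΔSCC4* and 408 in place of 80 between the controls. Between the controls, DESeq2 gave 142, no filter 127 and the replicate block 162, and 0 to 107 passed without single replicates. At least 10 counts gave 211 in place of 339 for the difference between the clones, and the replicate block 173 there and 5754 in *ΔSCC4*. Without single replicates the counts were 1415 to 4820 (clone 1.14), 662 to 2317 (*ΔSCC4*), 586 to 1552 and 861 to 1805 (*ΔWAPL*/*ΔSCC4* against control A and clone 3.3) and 218 to 372 (difference between the clones). Apart from *ΔSCC4*, pairing by replicate number was weak or unclear. The mean correlation of samples with the same number was -0.334 to 0.188 there, against 0.469 for *ΔSCC4*. It was highest for clone 1.14 against control B (0.188, and -0.094 for samples with other numbers). The block moved no other count of partner genes by over 1.5 times except the 1 that became 0. Where a single replicate is left out, a pair of samples remains in that group. Reads of NLGN4X in control A (4 in all) and of NRXN3 limit the precision of their ratios.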
